A study of Mus musculus with 18 samples.

Results

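Mammary fibroblasts sorted by the surface peptidase CD26 were compared in culture without tumour-conditioned medium, to describe what distinguishes the CD26+ from the CD26- population at baseline. The comparison uses the 3 libraries of CD26+ normal fibroblasts (CD26+ NFs, replicates 10 to 12) and the 3 libraries of CD26- NFs (replicates 1 to 3) that the labels place in control conditioned medium, 6 of the 18 libraries of the series. All cells came from mammary glands of female FVB/n mice of 8 to 16 weeks and were kept for 7 days in the control medium. The other 12 libraries are CD26- NFs and CD26+ NFs (6 each) kept for 7 days in medium conditioned by 6 WEPtn lobular carcinoma lines (tumour CM), and they serve here to estimate the spread and to compare named genes. Per the methods of the study, cells of 4 to 6 mice were pooled for a sort, were selected as negative for EpCAM, CD49f, CD45 and CD31, were split by CD26 and were expanded on collagen for up to 6 passages. The labels do not say whether the 3 libraries of a group came from separate sorts, so p-values measure the spread between these libraries, which may be technical. What conditioned the control medium is not given in the sources used here.

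Fibroblasts build and remodel the interstitial matrix of the gland and send growth signals to the ducts they surround. In mouse connective tissues, CD26 (encoded by Dpp4) together with Pi16, Dpt and Ly6c1 marks a fibroblast state of fascia and vessel surrounds that is regarded as progenitor-like. Epithelial cells of the ducts are recognised by keratins, claudins and E-cadherin, and a fibroblast culture should hold little of these transcripts.

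The 6 libraries held 9725723 to 14585349 counts, and 14273 of 55486 genes passed the filter on low counts. The 10 most abundant genes took 5.88% to 6.16% of the counts in CD26- NFs and 10.8% to 12.5% in CD26+ NFs. Replicates of a group differed by more than counting error, with a chi-square per degree of freedom of 3.22 to 6.34. Levels are given as CPM (counts per 1000000 counts of the library) with TMM scaling, in the order of replicates 1, 2 and 3 for CD26- NFs and 10, 11 and 12 for CD26+ NFs, and each log2 fold change is CD26+ over CD26- NFs with its standard error. A gene was called when its edgeR quasi-likelihood test gave a Benjamini-Hochberg adjusted p under 0.05 and its log2 fold change lay beyond 2 in either direction. Genes named beside the ranked ones are members of gene lists, some of them picked for their role after their values were seen. Coordinates are those of GRCm38.

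The sorting marker itself could not be checked in these RNA libraries. Dpp4 had 0, 2 and 1 counts in the CD26- libraries and 1, 0 and 1 counts in the CD26+ libraries, so no difference was detectable at these counts. By flow cytometry, the study reported a rapid fall of CD26 in CD26+ NFs after sorting and culture. The part of that fall in these counts was not tested. Of 13 fibroblast markers, all were measured, 11 were higher in CD26+ NFs at an adjusted p under 0.05 and none was lower, where 25.0% of all tested genes were higher and 25.4% lower. Their summed level was 17503, 19098 and 17116 CPM in CD26- NFs and 63391, 80449 and 72619 CPM in CD26+ NFs. The groups did not overlap and differed by 2.01 on the log2 scale, with an exact two-sided permutation p of 0.1, which is the smallest that 3 against 3 libraries can give. The collagens Col1a1, Col1a2 and Col3a1 carried most of that sum, while vimentin, the intermediate filament protein of mesenchymal cells, was closer between the groups at 1756 ± 116 CPM in CD26- NFs and 2389.8 ± 95.7 CPM in CD26+ NFs (mean ± SD, n = 3 each, as for all levels written so below; log2 fold change 0.45 ± 0.09). The labelled cell type therefore had its markers in all 6 libraries.

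Epithelial transcripts were also present in all 6 libraries, and more of them in CD26- NFs. The summed level of 18 pan-epithelial markers was 5453, 5431 and 4854 CPM in CD26- NFs and 1359, 681 and 1080 CPM in CD26+ NFs, a log2 difference of -2.39 with no overlap (exact permutation p = 0.1). Keratin 18 alone reached 1565, 1609 and 1428 CPM in CD26- NFs and 362, 181 and 296 CPM in CD26+ NFs. E-cadherin (Cdh1), the adhesion protein of epithelial junctions, stood at 455, 460.2 and 459.8 CPM in CD26- NFs and 115, 50.7 and 81.5 CPM in CD26+ NFs. Of the CD26+ libraries, replicate 11 held the least of both and replicate 10 the most, so the CD26+ libraries differed among themselves while the CD26- libraries were close together. Summed basal markers lay between 1773 and 2036 CPM in CD26- NFs and between 389.9 and 591 CPM in CD26+ NFs. Within the basal list, Krt5 (log2 fold change -0.96 ± 0.60, adjusted p = 0.192) and the basal regulator Trp63 (0.44 ± 0.47, adjusted p = 0.463) did not pass the test. Summed luminal markers came to 91.0 to 102 CPM and 38.1 to 44.8 CPM. Of the 9 tested, 4 were lower, among them Areg and Gata3, which made up most of the sum in CD26- NFs, and Pgr (1.39 ± 0.42, adjusted p = 0.0102) and Kit (1.69 ± 0.60, adjusted p = 0.0267) were higher. The milk protein genes Csn2, Lalba and Wap had 0 counts. In bulk RNA, fewer epithelial cells and less epithelial RNA per cell cannot be told apart, and the source of these transcripts was not tested.

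Markers of other cell types were at low levels. Summed immune markers reached 24.1 to 29.2 CPM in CD26- NFs and 18.6 to 22.0 CPM in CD26+ NFs, with Ptprc, the gene of the CD45 used in the sort, at no more than 3 counts in any library. Summed endothelial markers reached 11.3 to 11.7 CPM and 6.67 to 7.85 CPM, with Pecam1 (CD31) at no more than 7 counts and Cldn5 at 0. Pericyte markers summed to 160 to 173 CPM in CD26- NFs and 59.0 to 77.9 CPM in CD26+ NFs. Skeletal muscle markers summed to 50.1 to 77.7 CPM and 12.7 to 19.2 CPM, most of it from the actin Acta1. Adipocyte markers went the other way, with 14.4 to 16.0 CPM in CD26- NFs and 22.3 to 38.3 CPM in CD26+ NFs. Each of these 5 lists, and the basal and luminal lists above, had groups that did not overlap (exact permutation p = 0.1 for each). Schwann markers summed to 4.44 to 6.29 CPM and 5.94 to 7.70 CPM and overlapped (exact permutation p = 0.2).

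**Figure D1:**
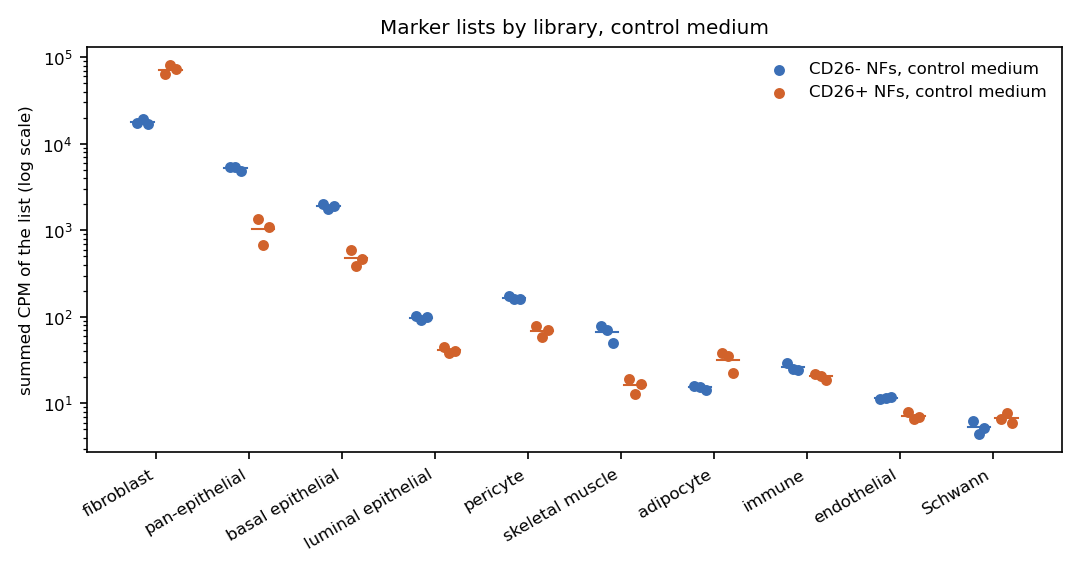
Summed CPM of marker lists (log axis) in each of the 6 control-medium libraries, CD26- NFs in blue and CD26+ NFs in orange, with a bar at the group mean. Fibroblast markers sat between 17116 and 19098 CPM in CD26- NFs and between 63391 and 80449 CPM in CD26+ NFs, whereas pan-epithelial markers sat between 4854 and 5453 CPM and between 681 and 1359 CPM.

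Across the transcriptome, 852 genes (5.97% of those tested) were called. Of these, 280 (1.96%) were higher and 572 (4.01%) were lower in CD26+ NFs. At an adjusted p under 0.05 with no limit on size, 3567 genes (25.0%) were higher and 3619 (25.4%) lower, and the median log2 fold change of all tested genes was 0.01. The 3 libraries of one group lay wholly apart from the other for 64.7% of tested genes, so a lack of overlap is common here.

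To place genes on the stromal or the epithelial side, each library was given an epithelial index, the mean log2 CPM of 39 epithelial marker genes that passed the filter. The index was 5.20 to 5.43 in the control-medium CD26- libraries and 3.25 to 3.96 in the CD26+ libraries. For each gene, its correlation r with the index was then taken over the 18 libraries after removing the group means, so that a gene carried by the same RNA as the markers follows them from library to library inside a group. The 18 pan-epithelial genes had r of 0.73 to 0.94 and log2 fold changes of -2.92 to -1.81 (median -2.31). These r values are a description over libraries that share medium and scaling, and marker genes are part of the index.

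Of the 572 genes called lower in CD26+ NFs, 325 (56.8%) had an r over 0.5, against 8.81% of all tested genes and 0 of the 280 genes called higher. The genes called higher had a median r of -0.14, and 257 of the 280 lay between -0.5 and 0.5. As a second reading, the comparison was fitted with the index as a covariate. With it, 711 genes (4.98%) were higher and 655 (4.59%) lower at an adjusted p under 0.05. Of the called genes, 143 higher (1.00% of tested genes) and 50 lower (0.350%) were called again, which is 51.1% and 8.74% of the 2 sets. The index and the cell type are closely tied, with 87.2% of the variance of the index lying between the 4 groups, and the median standard error of a fold change grew from 0.13 to 0.24. A gene lost with the covariate is therefore not shown to be epithelial. Of the 13 fibroblast markers, 3 in place of 11 were higher and none lower with the index, and their median log2 fold change went from 0.94 to 0.79.

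**Figure D2:**
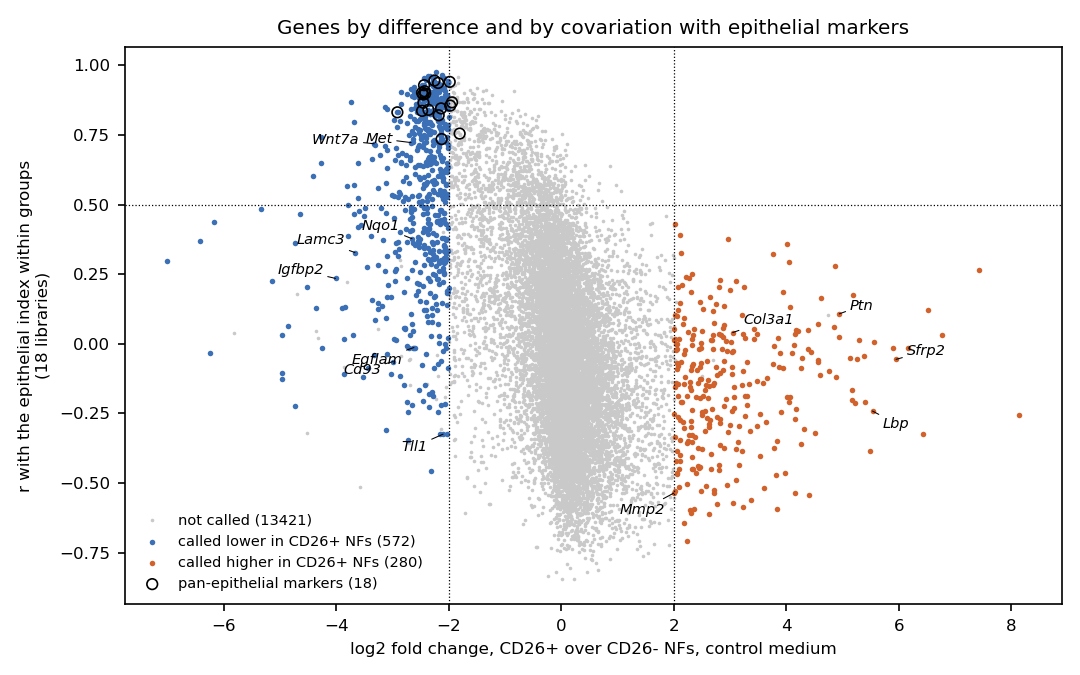
Each of 14273 tested genes by its log2 fold change between CD26+ and CD26- NFs in control medium (horizontal) and its correlation with the epithelial index inside groups over 18 libraries (vertical); dotted lines mark log2 fold changes of -2 and 2 and an r of 0.5. The 18 pan-epithelial markers (circles) lie between 0.73 and 0.94, 325 of the 572 genes called lower (blue) lie above 0.5, and none of the 280 genes called higher (orange) does.

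**Figure D3:**
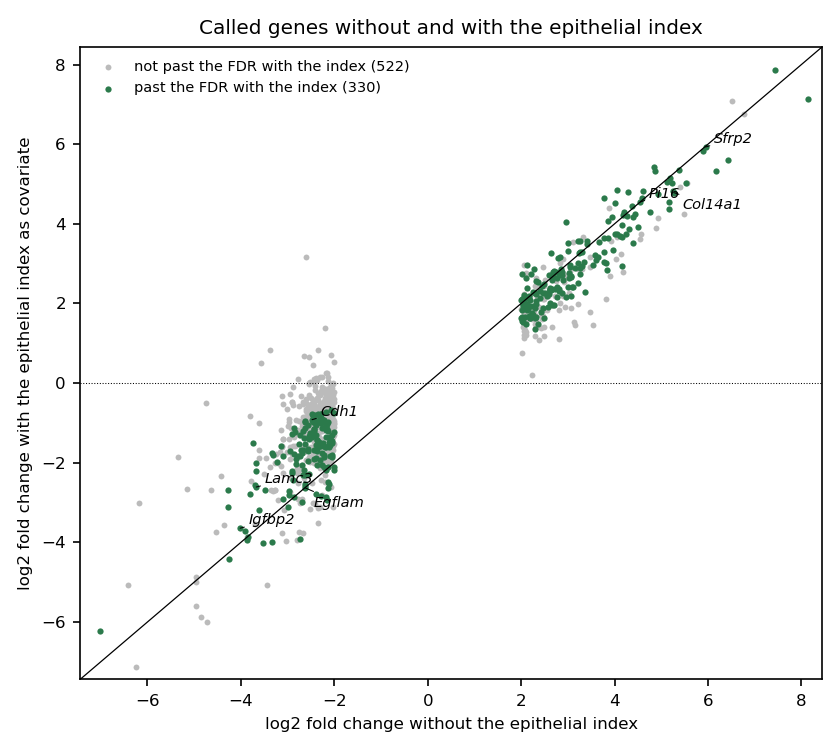
Log2 fold changes of the 852 called genes without (horizontal) and with (vertical) the epithelial index as a covariate, the diagonal marking equal values; green genes stayed past an adjusted p of 0.05 and grey genes did not. Genes called higher stay near the diagonal (median 2.77 without and 2.47 with the index), while genes called lower move towards 0 (median -2.38 and -1.14).

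The promoters of some of these markers are shown because a single hexamer recurs in several of them. The letters CACCTG, read on either strand (CAGGTG on the other), form an E-box that is well known from the promoter of E-cadherin. The windows are the 250 bases before the start that RefSeq gives for each gene on GRCm38.p6, written on the strand of the gene with the hexamer in capitals. The deposited table starts Krt18 inside its window, and its start for Spint2 lies downstream of the window. Epcam (chr17:87635729-87635978, forward strand), Cldn4 (chr5:134946935-134947184, reverse strand), Krt18 (chr15:102027966-102028215, forward strand) and Spint2 (chr7:29281978-29282227, reverse strand) are epithelial genes lower in CD26+ NFs, and Col3a1 (chr1:45311288-45311537, forward strand) and Sfrp2 (chr3:83766071-83766320, forward strand) are stromal genes higher in them.
Epcam: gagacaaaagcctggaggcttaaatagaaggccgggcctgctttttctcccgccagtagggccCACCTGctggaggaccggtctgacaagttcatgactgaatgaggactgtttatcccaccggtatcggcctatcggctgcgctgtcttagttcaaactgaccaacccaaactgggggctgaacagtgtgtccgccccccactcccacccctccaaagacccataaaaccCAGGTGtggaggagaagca
Cldn4: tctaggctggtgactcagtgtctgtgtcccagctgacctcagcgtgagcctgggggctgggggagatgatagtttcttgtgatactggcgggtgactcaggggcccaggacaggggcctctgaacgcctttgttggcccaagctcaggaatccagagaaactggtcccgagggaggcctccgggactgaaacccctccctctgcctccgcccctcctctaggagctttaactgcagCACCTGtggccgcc
Krt18: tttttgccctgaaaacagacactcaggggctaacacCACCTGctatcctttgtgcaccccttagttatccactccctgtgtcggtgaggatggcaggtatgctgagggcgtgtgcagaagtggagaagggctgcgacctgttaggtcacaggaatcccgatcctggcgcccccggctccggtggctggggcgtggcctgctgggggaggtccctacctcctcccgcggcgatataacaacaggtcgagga
Spint2: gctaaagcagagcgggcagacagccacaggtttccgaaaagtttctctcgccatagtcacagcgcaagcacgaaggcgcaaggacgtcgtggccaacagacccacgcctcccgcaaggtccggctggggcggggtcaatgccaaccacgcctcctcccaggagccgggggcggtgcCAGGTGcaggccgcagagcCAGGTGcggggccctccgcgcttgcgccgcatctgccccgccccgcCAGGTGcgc
Col3a1: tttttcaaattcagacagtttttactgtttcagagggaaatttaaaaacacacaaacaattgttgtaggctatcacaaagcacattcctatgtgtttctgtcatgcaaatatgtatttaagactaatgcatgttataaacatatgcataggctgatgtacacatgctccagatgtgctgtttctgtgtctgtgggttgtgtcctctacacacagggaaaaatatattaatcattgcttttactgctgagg
Sfrp2: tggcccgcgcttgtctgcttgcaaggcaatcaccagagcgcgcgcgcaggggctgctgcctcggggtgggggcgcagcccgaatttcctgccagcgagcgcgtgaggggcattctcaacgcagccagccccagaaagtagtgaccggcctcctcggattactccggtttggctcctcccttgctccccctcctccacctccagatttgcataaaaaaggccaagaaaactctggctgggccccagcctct
Epcam held 2 copies, Spint2 3, and Cldn4 and Krt18 1 each, and Col3a1 and Sfrp2 held none. These genes do not stand for all of their kind. The pan-epithelial markers Cldn3 and Spint1 held no copy, and 4 of 35 collagen genes with a window, Col16a1, Col4a4, Col6a5 and Col8a1, held 1 each. The hexamer was present in 9 of the 11 pan-epithelial markers that have a window and in 19.4% of all 27025 genes with one. With only 11 of 18 markers (61.1%) in the table, a comparison of the list with all genes is void, and the match describes these letters and not a bound site.

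The 12 genes higher in CD26+ NFs with the smallest p were secreted regulators, matrix enzymes, receptors and genes of less certain role. Sfrp2 (chromosome 3, 83766321 to 83774316), a secreted antagonist of Wnt ligands, stood at 4.84, 4.95 and 3.72 CPM in CD26- NFs and 264, 321 and 243 CPM in CD26+ NFs (log2 fold change 5.95 ± 0.28, adjusted p = 1.79e-10). The groups lay far apart, and the spread inside each was small beside the distance between them. Gas1 (chromosome 13, 60174405 to 60177365), a membrane-anchored co-receptor for Hedgehog ligands, stood at 18.6, 17.3 and 15.6 CPM in CD26- NFs and 154, 182 and 159 CPM in CD26+ NFs (log2 fold change 3.27 ± 0.16, adjusted p = 4.73e-10). Steap3 (chromosome 1, 120190757 to 120272705), a metalloreductase of endosomal iron uptake, stood at 35.1, 40.6 and 32.6 CPM in CD26- NFs and 238, 258 and 214 CPM in CD26+ NFs (log2 fold change 2.72 ± 0.11, adjusted p = 1.08e-10). With the epithelial index in the fit, Sfrp2 kept a log2 fold change of 5.93 ± 0.43, adjusted p = 1.52e-06, Gas1 of 3.29 ± 0.28, adjusted p = 6.26e-06 and Steap3 of 2.36 ± 0.18, adjusted p = 1.52e-06.

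Lbp (chromosome 2, 158306493 to 158332852), the lipopolysaccharide-binding protein of innate immunity, went from near absence to a clear level, with 1.16, 0.854 and 1.29 CPM in CD26- NFs and 47.2, 65.7 and 42.6 CPM in CD26+ NFs (log2 fold change 5.53 ± 0.32, adjusted p = 2.14e-09). Mmp2, the gelatinase that fibroblasts secrete as a proenzyme, was abundant in both populations, with 333, 318 and 319 CPM in CD26- NFs and 1195, 1443 and 1243 CPM in CD26+ NFs (log2 fold change 2.00 ± 0.11, adjusted p = 1.74e-09). Mmp2 lay at the limit on fold change, and with the index its log2 fold change was 1.63 ± 0.18, adjusted p = 4.82e-05, so it was then not called. Ptgfr, the receptor of prostaglandin F2-alpha, had 2.81, 2.9 and 2.71 CPM in CD26- NFs and 32.1, 36.2 and 34.1 CPM in CD26+ NFs (log2 fold change 3.60 ± 0.22, adjusted p = 2.77e-09). Both groups of Ptgfr were tight, with no library standing apart.

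Sned1, a secreted matrix glycoprotein, was at 61.9 ± 3.58 CPM in CD26- NFs and 629.5 ± 41.8 CPM in CD26+ NFs (log2 fold change 3.35 ± 0.18). Cpxm1, a carboxypeptidase-like secreted protein, was at 39.6 ± 2.00 CPM in CD26- NFs and 209.8 ± 19.5 CPM in CD26+ NFs (2.41 ± 0.14). Plxnd1, a semaphorin receptor, was at 35.7 ± 4.39 CPM in CD26- NFs and 144 ± 7.29 CPM in CD26+ NFs (2.01 ± 0.12). The ubiquitin ligase gene Rnf144a (3.16 ± 0.17), the metalloprotease gene Trabd2b, which cleaves Wnt proteins (2.08 ± 0.12), and the glycosyltransferase gene Galnt13 (3.97 ± 0.24) completed the 12. Adjusted p lay between 1.08e-10 and 3.16e-09 over the 12 genes, and 8 of them (Steap3, Sfrp2, Gas1, Rnf144a, Sned1, Lbp, Cpxm1 and Ptgfr) are also the 8 with the smallest p among those called again with the index. Their r with the index ran from -0.54 (Mmp2) to 0.02 (Gas1).

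The 12 genes lower in CD26+ NFs with the smallest p divided by how far they followed the epithelial markers. F11r, which encodes the tight junction protein JAM-A, had an r of 0.80 and stood at 132, 125 and 131 CPM in CD26- NFs and 28.2, 19.6 and 29 CPM in CD26+ NFs (log2 fold change -2.34 ± 0.17, adjusted p = 1.65e-08). Abca3, a lipid transporter (r 0.84), Zdhhc2, a palmitoyltransferase (r 0.84), Aif1l (r 0.65), Lce1h of the cornified envelope (r 0.74) and Ablim1, an actin-binding protein (r 0.60), also had r over 0.5. Their log2 fold changes were -2.01, -2.18, -2.24, -4.27 and -2.12. Cgnl1 of junctions (-2.21, r 0.44), the polarity kinase Prkcz (-2.19, r 0.46) and AA986860 (-2.44, r 0.42) lay just below that value. Adjusted p lay between 5.86e-10 and 6.57e-08 over the 12.

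Egflam and Cd93 had an r near 0. Egflam (chromosome 15, 7206120 to 7398395), which encodes pikachurin, a secreted ligand of dystroglycan, had 7.94, 8.8 and 9.61 CPM in CD26- NFs and 1.38, 1.41 and 1.48 CPM in CD26+ NFs (log2 fold change -2.62 ± 0.13, adjusted p = 5.86e-10; r -0.01). Its CD26+ libraries were nearly equal at a low level, and the part of epithelial RNA in the Egflam difference was not tested. Cd93 (chromosome 2, 148436640 to 148443563), a transmembrane receptor of the C-type lectin group that is usually studied in endothelium, had 13.9, 17.3 and 13.9 CPM in CD26- NFs and 2.02, 1.63 and 2.00 CPM in CD26+ NFs (log2 fold change -2.99 ± 0.19, adjusted p = 4.33e-09; r -0.06). The summed endothelial markers moved the same way at 11.3 to 11.7 CPM against 6.67 to 7.85 CPM, with Vwf (-3.26), Cdh5 (-2.17) and Flt1 (-1.44) of the 6 tested lower, the defining Cldn5 at 0 counts and Pecam1 at 7 or fewer, and their part in the Cd93 difference was not tested. Ptgs2, the inducible cyclooxygenase of prostaglandin synthesis, was the most abundant of the 12, with 2405, 2519 and 2376 CPM in CD26- NFs and 566, 400.4 and 519.7 CPM in CD26+ NFs (log2 fold change -2.30 ± 0.18, adjusted p = 3.70e-08; r 0.37). With the index its log2 fold change was -1.94 ± 0.31, adjusted p = 9.88e-04.

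**Figure D4:**
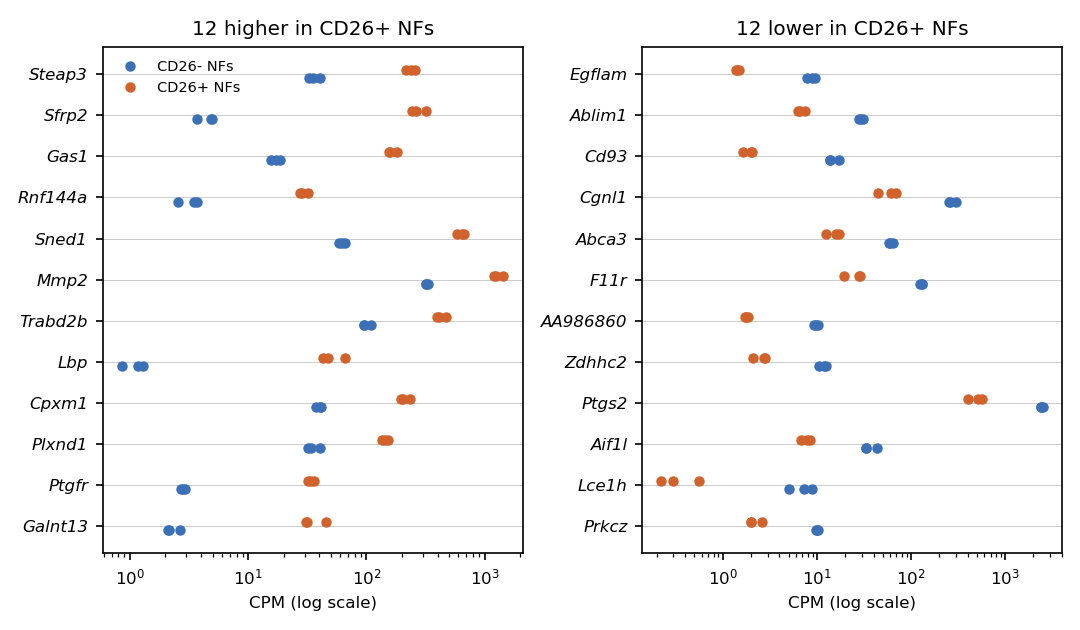
CPM (log axis) of the 12 genes higher and the 12 genes lower in CD26+ NFs with the smallest p, 1 point per library, CD26- NFs in blue and CD26+ NFs in orange. The genes were chosen to have groups that do not overlap; Sfrp2 spans 3.72 to 321 CPM and Ptgs2 spans 400.4 to 2519 CPM.

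Among the genes called lower, 22 were called again with the index, had an r of at most 0.5 and reached a mean of 5 CPM in CD26- NFs, a selection made after their values were seen. They include Egflam, Cd93, Tll1, Nqo1, Igfbp2, Lamc3, Casp14, Bdkrb2, Ifi47, Grb14, Lce1g, Slco4a1, Ereg, Havcr2, Mapk13, Gdnf, Frzb, Il1a, Ampd3, Syt17 and Cxcl3. Igfbp2 (chromosome 1, 72824503 to 72852474), a carrier of insulin-like growth factors, stood at 132, 152 and 119.7 CPM in CD26- NFs and 7.04, 8.59 and 9.28 CPM in CD26+ NFs (log2 fold change -4.02 ± 0.36, adjusted p = 1.41e-07). Lamc3, a laminin gamma chain, stood at 39.4, 39.2 and 35.3 CPM in CD26- NFs and 2.59, 2.59 and 3.71 CPM in CD26+ NFs (log2 fold change -3.67 ± 0.34, adjusted p = 2.25e-07). Nqo1, a quinone reductase of the antioxidant response, stood at 83, 101 and 97.9 CPM in CD26- NFs and 16.3, 13.1 and 15.4 CPM in CD26+ NFs (log2 fold change -2.65 ± 0.23, adjusted p = 1.10e-07). In Igfbp2, Lamc3 and Nqo1 alike, the groups lay far apart and the replicates of each were close. Lce1g, like Lce1h above, belongs to a family of similar genes on 1 cluster, so how reads divide among them is uncertain.

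Gdnf, a neurotrophic ligand, was at 7.64 ± 1.25 CPM in CD26- NFs and 1.68 ± 0.379 CPM in CD26+ NFs (log2 fold change -2.18 ± 0.33, adjusted p = 3.23e-05). Tll1, a tolloid-like protease that processes procollagen, was at 27.9 ± 3.6 CPM in CD26- NFs and 6.49 ± 0.724 CPM in CD26+ NFs (log2 fold change -2.10 ± 0.18; -2.54 ± 0.35, adjusted p = 3.00e-04 with the index). Ppbp was among the 8 lower genes with the smallest p that were called again with the index, but had an r of 0.65. Ppbp, a platelet-type chemokine, stood at 59.4, 70.9 and 71.5 CPM in CD26- NFs and 5.02, 2.96 and 2.52 CPM in CD26+ NFs (log2 fold change -4.27 ± 0.39, adjusted p = 1.64e-07). CD26+ replicate 10, the library with the most epithelial RNA of its group, also held the most Ppbp of its group. Replicate 11, with the least epithelial RNA, held slightly more Ppbp than replicate 12, and the source of Ppbp was not tested.

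Counts of list members in the following paragraphs stand beside 25.0% of all tested genes higher and 25.4% lower, 1.96% called higher and 4.01% called lower, and, with the index, 4.98% higher and 4.59% lower. Of 39 collagen genes tested, 19 were higher and 8 lower at an adjusted p under 0.05, 10 were called higher and 0 lower, and the median log2 fold change was 0.91 against 0.01 for all tested genes. Col3a1, the fibrillar collagen of loose tissue, stood at 2729, 2817 and 2983 CPM in CD26- NFs and 20174, 27115 and 23116 CPM in CD26+ NFs (log2 fold change 3.05 ± 0.50, adjusted p = 7.07e-05). Col14a1, which associates with fibrils, stood at 4.07, 2.65 and 2.84 CPM in CD26- NFs and 106, 155 and 107 CPM in CD26+ NFs (log2 fold change 5.28 ± 0.57, adjusted p = 9.36e-07) and was scarce in CD26- NFs. Col23a1, a transmembrane collagen, and Col24a1 were likewise scarce there, at 2.86 ± 0.341 CPM in CD26- NFs and 51.1 ± 4.51 CPM in CD26+ NFs and 1.17 ± 0.0235 CPM in CD26- NFs and 22.4 ± 3.56 CPM in CD26+ NFs, with log2 fold changes of 4.16 ± 0.29 and 4.25 ± 0.33.

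The major fibrillar chains Col1a1 (1.93 ± 0.37) and Col1a2 (1.83 ± 0.28) and the microfibrillar chains Col6a1 (2.04 ± 0.22), Col6a2 (2.25 ± 0.24) and Col6a3 (1.18 ± 0.22) were all higher at an adjusted p under 0.05. Type IV chains of basement membranes had negative log2 fold changes. Col4a1 stood at 1687 ± 142 CPM in CD26- NFs and 885 ± 87.4 CPM in CD26+ NFs (-0.93 ± 0.22, adjusted p = 0.0018). Col4a2 stood at 1044 ± 123 CPM in CD26- NFs and 569 ± 56.7 CPM in CD26+ NFs (-0.88 ± 0.23, adjusted p = 0.00422). Col4a3 (-1.68), Col4a4 (-1.87) and Col4a6 (-1.51) were lower as well, and Col4a5 differed least, at -0.35. With the index in the fit, 9 collagen genes were higher and none lower at an adjusted p under 0.05, and the list's median was 1.08. Its median r with the index was 0.01.

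Of 44 microfibril and matricellular genes tested, 30 were higher and 4 lower, 10 were called higher and 0 lower, and the median was 1.01. With the index, 12 were higher and 1 lower, at a median of 0.95. Fbn2, a fibrillin of elastic microfibrils, stood at 10.1, 15.4 and 16.5 CPM in CD26- NFs and 125, 168 and 143 CPM in CD26+ NFs (log2 fold change 3.36 ± 0.30, adjusted p = 1.24e-07). Fbln1, a fibulin of elastic fibres and basement membranes, stood at 42.1, 43.8 and 42.1 CPM in CD26- NFs and 286, 347 and 316 CPM in CD26+ NFs (log2 fold change 2.89 ± 0.19, adjusted p = 5.03e-09). Prg4 (lubricin), a lubricating glycoprotein of joint and tendon surfaces, stood at 8.13, 9.14 and 7.11 CPM in CD26- NFs and 86.3, 115 and 89.9 CPM in CD26+ NFs (log2 fold change 3.58 ± 0.33, adjusted p = 2.14e-07). In all 3 genes, CD26+ replicate 11, the library with the least epithelial RNA, was the highest. Over the 18 libraries, r with the index was -0.56 for Fbn2, -0.22 for Fbln1 and -0.14 for Prg4. The 4 lower genes were Ccn2 (-0.94), Thbs1 (-0.71), Ltbp1 (-0.61) and Ccn1 (-0.56), named after their values were seen; Ccn1 and Ccn2 are known targets of Yap signalling.

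Of 13 small leucine-rich proteoglycans, which regulate fibril assembly, 9 were higher and none lower, with a median of 1.42 and Podn called. Decorin (Dcn) stood at 106, 112 and 117 CPM in CD26- NFs and 368, 436 and 366 CPM in CD26+ NFs (log2 fold change 1.80 ± 0.31, adjusted p = 1.11e-04). Podn (2.50 ± 0.35), Podnl1 (1.97 ± 0.24) and Prelp (1.90 ± 0.44) had the other large differences among members above 5 CPM. With the index, 2 of the 13 were higher at an adjusted p under 0.05, while the median stayed at 1.36.

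Of 26 laminin and basement membrane genes, 12 were lower and 5 higher, 7 were called lower and 0 higher, and the median was -0.73. With the index, 6 were lower and 1 higher at an adjusted p under 0.05, at a median of -0.27. Lama3 and Lamb3, laminin chains of epithelial basement membranes, followed the epithelial index (r 0.92 and 0.93) with log2 fold changes of -2.62 and -2.13. Lama5 (-2.44 ± 0.26, r 0.79) did as well. Lamc3 and Egflam, given above, had r of 0.33 and -0.01. Going the other way, Lama4, a laminin chain of mesenchyme and vessels, was at 151 ± 5.39 CPM in CD26- NFs and 369 ± 26.4 CPM in CD26+ NFs (log2 fold change 1.29 ± 0.18, adjusted p = 1.14e-05).

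Of 31 matrix protease and inhibitor genes, 12 were higher and 6 lower, against 25.0% and 25.4% of all tested genes. Of these 2 were called higher (Mmp2 and Mmp28) and 6 lower, with a median of 0.32. With the index, 5 were higher and 1 lower, at a median of 0.23. Mmp3 (stromelysin-1) stood at 87.1, 101 and 93.9 CPM in CD26- NFs and 11.8, 11.6 and 11.1 CPM in CD26+ NFs (log2 fold change -3.03 ± 0.80, adjusted p = 0.00408) with a large standard error in spite of close replicates. In tumour CM, whose libraries share the estimate of spread, it was at 1292 ± 505 CPM in CD26- NFs and 1290.2 ± 890.5 CPM in CD26+ NFs (n = 6 each). Mmp9, a gelatinase, stood at 300.4, 270.3 and 273 CPM in CD26- NFs and 78.9, 45 and 44.3 CPM in CD26+ NFs (log2 fold change -2.33 ± 0.39, adjusted p = 9.52e-05; r 0.43). Mmp28, an epilysin, was scarce in CD26- NFs, at 1.45, 0.598 and 0.744 CPM in CD26- NFs and 6.72, 7.33 and 6.01 CPM in CD26+ NFs (log2 fold change 2.87 ± 0.30, adjusted p = 6.82e-07).

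Most secreted Wnt antagonists were higher in CD26+ NFs. Of 9 tested, 6 were higher and 2 lower, and 4 were called higher (Sfrp1, Sfrp2, Sfrp4 and Notum) and 1 lower (Frzb), with a median of 0.91. With the index, 3 were higher and 1 lower, at a median of 1.08. Sfrp1 stood at 241, 233 and 217 CPM in CD26- NFs and 1789.8, 2079 and 1822 CPM in CD26+ NFs (log2 fold change 3.04 ± 0.55, adjusted p = 1.79e-04). Sfrp4 stood at 0.678, 0.939 and 0.88 CPM in CD26- NFs and 13.5, 16.4 and 11.2 CPM in CD26+ NFs (log2 fold change 4.01 ± 0.39, adjusted p = 3.39e-07), and Notum, the enzyme that removes the lipid of Wnt proteins, at 3.97, 4.53 and 2.1 CPM in CD26- NFs and 28.2, 39.6 and 31 CPM in CD26+ NFs (log2 fold change 3.25 ± 0.27, adjusted p = 6.31e-08). Per kilobase of exon, mean levels of Sfrp1 were 52.6 in CD26- NFs and 434 in CD26+ NFs, those of Sfrp2 2.09 in CD26- NFs and 128 in CD26+ NFs, and those of Sfrp4 0.199 in CD26- NFs and 3.28 in CD26+ NFs, all in CPM per kb. Sfrp1 was thus the most abundant of the 3 in both populations. Frzb, a relative of the Sfrp genes, differed in the other direction (7.32 ± 1.45 CPM in CD26- NFs and 1.56 ± 0.195 CPM in CD26+ NFs; log2 fold change -2.22 ± 0.36, adjusted p = 5.78e-05).

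Wnt ligands and pathway genes were lower more often than higher. Of 24 tested, 12 were lower and 6 higher, 5 were called lower and 1 higher, with a median of -0.53. With the index, 2 were higher and 1 lower at an adjusted p under 0.05 and the median was 0.06. Wnt7a stood at 39.1, 49.7 and 36.3 CPM in CD26- NFs and 5.91, 1.85 and 4.75 CPM in CD26+ NFs (log2 fold change -3.33 ± 0.36, adjusted p = 8.05e-07) with an r of 0.72, Wnt7b had a log2 fold change of -2.17 ± 0.28 with an r of 0.82, and Wnt10a of -2.56 ± 0.38 with an r of 0.77. All 3 ligands followed the epithelial markers inside groups. Wnt16 was the ligand called higher, with 0.387, 0.342 and 0.338 CPM in CD26- NFs and 6.39, 7.85 and 5.94 CPM in CD26+ NFs (log2 fold change 4.21 ± 0.37, adjusted p = 1.14e-07; r 0.05). Wnt5a, the ligand best known from stroma, was at 87.5 ± 2.87 CPM in CD26- NFs and 94 ± 6.68 CPM in CD26+ NFs (log2 fold change 0.10 ± 0.16, adjusted p = 0.618). The receptor gene Lgr5 (1.74 ± 0.44) and the R-spondin genes Rspo2 (1.38 ± 0.39) and Rspo3 (1.33 ± 0.32), which strengthen Wnt signals, were higher. Axin2, a feedback target of Wnt signalling, was at -0.58 ± 0.26 (adjusted p = 0.0689), and Lef1, another, at -0.81 ± 0.23 (adjusted p = 0.00748).

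In the Hedgehog pathway 5 of 14 genes were higher and 4 lower, against 25.0% and 25.4% of all tested genes, with a median of 0.30. With the index, 3 were higher and none lower, at a median of 0.28. The co-receptors Gas1 and Cdon (44.3 ± 3.26 CPM in CD26- NFs and 109.8 ± 8.9 CPM in CD26+ NFs; log2 fold change 1.31 ± 0.13, adjusted p = 4.41e-07) and the transcription factor gene Gli3 (0.67 ± 0.10) were higher, and Scube3, which helps release the ligands, was lower (15.9, 8.54 and 12.4 CPM in CD26- NFs and 2.83, 1.63 and 2.3 CPM in CD26+ NFs; log2 fold change -2.44 ± 0.41, adjusted p = 8.99e-05). Scube3 followed the epithelial index (r 0.60), and with the index its log2 fold change was -0.50 ± 0.70, adjusted p = 0.717. Ptch1, a receptor and target, was lower by little (-0.51 ± 0.11, adjusted p = 8.69e-04). Dhh, a Hedgehog ligand, was lower and scarce (1.29 ± 0.308 CPM in CD26- NFs and 0.25 ± 0.236 CPM in CD26+ NFs; -2.27 ± 0.64).

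Of 35 BMP and TGF-beta pathway genes 13 were higher and 5 lower, against 25.0% and 25.4% of all tested genes. Of these 3 were called higher and 1 lower (1.96% and 4.01% of all tested genes), and the list's median was 0.05. With the index, 5 were higher and none lower, at a median of 0.27. Gdf10, a ligand of the family, stood at 5.61, 6.15 and 5.28 CPM in CD26- NFs and 38, 46 and 35.6 CPM in CD26+ NFs (log2 fold change 2.81 ± 0.25, adjusted p = 1.20e-07). Tgfbr3 (betaglycan), a co-receptor, stood at 84.8, 87.5 and 82.2 CPM in CD26- NFs and 344, 393 and 344 CPM in CD26+ NFs (log2 fold change 2.09 ± 0.14, adjusted p = 5.51e-09). The targets Id1 (0.62 ± 0.13), Id3 (0.76 ± 0.12) and Smad6 (1.41 ± 0.20) were higher at an adjusted p under 0.05, and Smad7 was lower (-0.59 ± 0.10). The ligand genes Tgfb1 (-0.08 ± 0.16), Tgfb2 (-0.01 ± 0.35) and Tgfb3 (0.29 ± 0.26) did not pass the test, with adjusted p of 0.717, 0.977 and 0.378. Inhba, an activin subunit, was lower and abundant in both, at 3488 ± 82.2 CPM in CD26- NFs and 1381 ± 121 CPM in CD26+ NFs (log2 fold change -1.34 ± 0.21, adjusted p = 3.99e-05).

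Of 17 complement genes tested, 11 were higher and 4 lower, 8 were called higher and 1 lower, and the median was 1.46. C4b stood at 3.68, 2.65 and 2.98 CPM in CD26- NFs and 115, 152 and 117 CPM in CD26+ NFs (log2 fold change 5.38 ± 0.43, adjusted p = 4.55e-08), and its CD26+ libraries lay far above every CD26- library. C1s1 and C1ra, which encode the proteases of the C1 complex, stood at 5.13 ± 0.192 CPM in CD26- NFs and 47.9 ± 7.38 CPM in CD26+ NFs (3.22 ± 0.34) and 5.85 ± 1.00 CPM in CD26- NFs and 37.1 ± 5.85 CPM in CD26+ NFs (2.67 ± 0.25). C1s2 was at 1.23 ± 0.0698 CPM in CD26- NFs and 8.74 ± 1.25 CPM in CD26+ NFs (2.83 ± 0.40). C1s1 with C1s2, C1ra with C1rb and C4b with C4a are close copies whose reads the counting could have divided, so the share of each copy is uncertain. C3, the central component, was at 81.2 ± 3.77 CPM in CD26- NFs and 72.3 ± 6.5 CPM in CD26+ NFs (log2 fold change -0.17 ± 0.37, adjusted p = 0.736), and the regulators Cd55 (-1.89 ± 0.29) and Cd59a (-1.13 ± 0.31) were lower, as was the receptor gene C3ar1 (-2.52 ± 0.78). With the index, 8 of the list were higher and none lower at an adjusted p under 0.05, at a median of 1.80.

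Of 32 chemokines and cytokines tested, 15 were lower and 3 higher, 6 were called lower and 2 higher, with a median of -0.92. Il1a, the alarm cytokine, stood at 6.29, 9.05 and 7.11 CPM in CD26- NFs and 0.809, 0.296 and 0.445 CPM in CD26+ NFs (log2 fold change -3.85 ± 0.64, adjusted p = 7.22e-05). Cxcl3, a neutrophil attractant, stood at 5.71, 5.98 and 4.87 CPM in CD26- NFs and 0.567, 0.222 and 0.816 CPM in CD26+ NFs (log2 fold change -3.34 ± 0.71, adjusted p = 7.95e-04). Csf3 stood at 13.7, 11.1 and 9.48 CPM in CD26- NFs and 1.94, 0.815 and 1.78 CPM in CD26+ NFs (log2 fold change -2.91 ± 0.59, adjusted p = 4.83e-04). All 3 were scarce in CD26+ NFs, and replicate 11 held the least of each. The 3 higher genes were Ccl9 (6.58, 5.3 and 6.57 CPM in CD26- NFs and 50.1, 44.1 and 37.1 CPM in CD26+ NFs; log2 fold change 2.83 ± 0.38, adjusted p = 8.34e-06), Cxcl12 (2.48 ± 0.41) and Cx3cl1 (1.34 ± 0.33). Lif, a cytokine of the interleukin 6 family, was at 252 ± 10.9 CPM in CD26- NFs and 55.1 ± 16.7 CPM in CD26+ NFs (log2 fold change -2.19 ± 0.19, adjusted p = 1.07e-07). The list's median r with the index was 0.07. With the index, 4 of the list were lower and 1 higher at an adjusted p under 0.05, at a median of -0.63.

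Of 25 regulators of fat cell formation tested, 17 were higher and 4 lower, 8 were called higher and 1 lower, with a median of 0.88. With the index, 9 were higher and 2 lower, at a median of 0.61. Cebpa stood at 5.91, 7.86 and 5.96 CPM in CD26- NFs and 41.8, 41.1 and 38.2 CPM in CD26+ NFs (log2 fold change 2.62 ± 0.21, adjusted p = 4.25e-08) and Cebpd at 5.71, 4.61 and 3.38 CPM in CD26- NFs and 28.7, 30.9 and 23.1 CPM in CD26+ NFs (log2 fold change 2.61 ± 0.23, adjusted p = 1.22e-07); both encode factors that drive adipogenesis. Zfp423, which commits precursors, stood at 1.65, 1.62 and 1.96 CPM in CD26- NFs and 12.5, 15.6 and 15.2 CPM in CD26+ NFs (log2 fold change 3.03 ± 0.32, adjusted p = 6.18e-07), and Dlk1, which marks preadipocytes, at 5.71, 5.89 and 3.18 CPM in CD26- NFs and 32.2, 34.7 and 28.7 CPM in CD26+ NFs (log2 fold change 2.71 ± 0.25, adjusted p = 2.25e-07). Pparg, the master regulator, was at 16.9 ± 1.32 CPM in CD26- NFs and 18.8 ± 1.67 CPM in CD26+ NFs (log2 fold change 0.15 ± 0.17, adjusted p = 0.479) and did not pass the test. The lipid droplet gene Plin2 was lower (354 ± 12.1 CPM in CD26- NFs and 86.1 ± 11.1 CPM in CD26+ NFs; log2 fold change -2.04 ± 0.19, adjusted p = 1.72e-07), as was the lipase gene Pnpla2 (-1.65 ± 0.16). Beside these, the adipocyte genes Adipoq (1, 0 and 3 counts against 30, 29 and 9) and Plin1 (2, 1 and 0 counts against 54, 66 and 32) were higher at low levels, and the part of fat cells in the list's difference was not tested.

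Of 28 markers reported for universal fibroblast progenitors, 9 were higher and 10 lower, against 25.0% and 25.4% of all tested genes. Of these 2 were called higher and 1 lower, and the median was -0.10. With the index, 6 were higher and 2 lower at an adjusted p under 0.05 and the median was 0.42, on the CD26+ side. The defining genes Pi16 (0.484, 0.342 and 0.203 CPM in CD26- NFs and 8.17, 9.19 and 6.38 CPM in CD26+ NFs; log2 fold change 4.56 ± 0.63, adjusted p = 1.24e-05), Dpt (8.52, 7.17 and 8.12 CPM in CD26- NFs and 44, 55.4 and 44.3 CPM in CD26+ NFs; log2 fold change 2.59 ± 0.19, adjusted p = 1.65e-08) and Ly6c1 (4.94, 4.87 and 5.41 CPM in CD26- NFs and 21.4, 20.8 and 18.5 CPM in CD26+ NFs; log2 fold change 1.99 ± 0.20, adjusted p = 4.92e-07) were all higher in CD26+ NFs. Their groups did not overlap, and Pi16 was near absent from CD26- NFs. Ly6c1 has a near-identical neighbour, Ly6c2, so its reads may have been divided between them. Cd248 (1.20 ± 0.14) and Ly6a (0.96 ± 0.12) were higher as well. On the other side, Uchl1 (-1.96 ± 0.31), Procr (-1.55 ± 0.18), Anxa3 (-0.92 ± 0.08) and Sema3c (-0.86 ± 0.19) were lower, and Cd34 was at 0.95 ± 0.71 (adjusted p = 0.282). The lowest log2 fold change of the list was -2.38, in a member not named here.

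A list of matrix and secreted genes set up for CD26- fibroblasts shares collagens, Dcn and Sparcl1 with the account of the study, so it is not independent of the populations. Of 21 tested, 9 were higher and 4 lower in CD26+ NFs, against 25.0% and 25.4% of all tested genes, with a median of 0.66. With the index, 1 was higher and none lower, at a median of 0.33. Lpl, the lipoprotein lipase, was the member called higher, at 162, 167 and 142 CPM in CD26- NFs and 694, 749.7 and 694 CPM in CD26+ NFs (log2 fold change 2.18 ± 0.28, adjusted p = 6.37e-06). Gpc3 (1.55 ± 0.24), Sparcl1 (1.88 ± 0.42) and Col15a1 (0.91 ± 0.19) were higher too. The 4 lower members were Col18a1 (-1.18 ± 0.21), Mme (-0.94 ± 0.24), Col4a1 and Col4a2. From its single-cell data the study assigns Col18a1, Col4a1 and Col4a2 mainly to CD26- NFs, the same direction as here. It assigns Col15a1, Sparcl1 and Dcn to CD26- NFs as well, whereas in this culture they were higher in CD26+ NFs. Cxcl14 was at 1311 ± 50.4 CPM in CD26- NFs and 867 ± 34.8 CPM in CD26+ NFs (log2 fold change -0.60 ± 0.46, adjusted p = 0.302), and Penk at -0.81 ± 0.39 (adjusted p = 0.0948).

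Hox genes, which keep the position of a cell along the body, were higher by small amounts. Of 28 Hox genes tested, 20 were higher and 1 lower, none was called, the median was 0.70 and the range was -0.57 to 1.43. Hoxd8 (8.81, 10.3 and 10.1 CPM in CD26- NFs and 21.5, 26.8 and 26.4 CPM in CD26+ NFs; log2 fold change 1.35 ± 0.18, adjusted p = 6.32e-06) and Hoxc9 (9.00, 8.28 and 9.48 CPM in CD26- NFs and 16.6, 18.7 and 16.9 CPM in CD26+ NFs; log2 fold change 0.96 ± 0.15, adjusted p = 3.99e-05) are examples. None of the 28 was past an adjusted p of 0.05 with the index, although the median remained 0.49. Of 57 mesenchymal factors, 29 were higher and 9 lower, 5 were called higher and 1 lower, with a median of 0.62. With the index, 12 were higher and none lower, at a median of 0.32. Tbx5 stood at 1.06, 0.598 and 1.15 CPM in CD26- NFs and 5.75, 8.82 and 7.64 CPM in CD26+ NFs (log2 fold change 2.96 ± 0.31, adjusted p = 6.13e-07) and Osr2 at 1.06, 1.45 and 0.474 CPM in CD26- NFs and 6.07, 6.96 and 6.9 CPM in CD26+ NFs (log2 fold change 2.77 ± 0.27, adjusted p = 2.82e-07). Wt1 stood at 0.29, 0.342 and 0.203 CPM in CD26- NFs and 5.18, 7.63 and 4.9 CPM in CD26+ NFs, with no more than 4 counts in any CD26- library. Msx2 was the factor called lower (4.74, 5.72 and 5.48 CPM in CD26- NFs and 1.3, 1.33 and 1.11 CPM in CD26+ NFs; log2 fold change -2.09 ± 0.27, adjusted p = 6.53e-06). Snai1 (88.8 ± 13.8 CPM in CD26- NFs and 257 ± 19.1 CPM in CD26+ NFs; log2 fold change 1.53 ± 0.13, adjusted p = 1.14e-07) and Snai2 (36.7 ± 1.23 CPM in CD26- NFs and 95.2 ± 10.3 CPM in CD26+ NFs; log2 fold change 1.38 ± 0.11, adjusted p = 5.15e-08), which encode repressors of epithelial genes, were higher, as was Zeb2 (0.90 ± 0.12), while Zeb1 (0.11 ± 0.14, adjusted p = 0.564) and Twist2 (0.06 ± 0.26, adjusted p = 0.858) did not pass the test.

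Of 50 growth factor and receptor genes, 16 were higher and 18 lower, against 25.0% and 25.4% of all tested genes. Of these 4 were called higher and 10 lower, and the list's median was 0.11. With the index, 2 were higher and 8 lower, at a median of 0.07. Ptn (pleiotrophin), a heparin-binding growth factor, stood at 15.3, 14.3 and 13.2 CPM in CD26- NFs and 429, 457 and 427 CPM in CD26+ NFs (log2 fold change 4.94 ± 0.77, adjusted p = 4.19e-05). Igfbp4 stood at 121, 133 and 118 CPM in CD26- NFs and 1343, 1539.5 and 1263 CPM in CD26+ NFs (log2 fold change 3.48 ± 0.67, adjusted p = 2.98e-04). Replicates were close within both groups for Ptn and Igfbp4. In tumour CM, whose libraries share the estimate of spread, Ptn was at 0.703 ± 0.807 CPM in CD26- NFs and 12.1 ± 18.2 CPM in CD26+ NFs (n = 6 each) and Igfbp4 at 68.4 ± 32.9 CPM in CD26- NFs and 222 ± 215 CPM in CD26+ NFs (n = 6 each). Met, the receptor of hepatocyte growth factor, was lower with an r of 0.72 (138, 172 and 161 CPM in CD26- NFs and 27.2, 18.2 and 28.6 CPM in CD26+ NFs; log2 fold change -2.67 ± 0.23, adjusted p = 7.73e-08), while its ligand gene Hgf was higher (58.8 ± 0.161 CPM in CD26- NFs and 162 ± 4.65 CPM in CD26+ NFs; log2 fold change 1.46 ± 0.22, adjusted p = 2.37e-05). The EGF receptor ligands Ereg (-2.01 ± 0.24), Areg (-2.26 ± 0.32), Tgfa (-2.52 ± 0.27) and Hbegf (-1.50 ± 0.18) were all lower, with r of -0.09, 0.76, 0.76 and 0.83. Igf1 (1.33 ± 0.35) and Fgf10 (0.87 ± 0.14), stromal signals to the ducts, were higher.

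Of 57 axon guidance genes 21 were higher and 16 lower, against 25.0% and 25.4% of all tested genes. Of these 2 were called higher and 5 lower, and the list's median was 0.06. With the index, 9 were higher and none lower, at a median of 0.15. Plxna4, a plexin, stood at 7.16, 9.99 and 9.34 CPM in CD26- NFs and 66.5, 89.3 and 72.5 CPM in CD26+ NFs (log2 fold change 3.10 ± 0.19, adjusted p = 4.18e-09), and with Plxnd1 it formed the 2 called higher. Sema4f (-2.41 ± 0.31, r 0.73), Sema6a (-2.23 ± 0.26, r 0.58) and Sema3f (-2.21 ± 0.33, r 0.84) were lower and followed the epithelial index. Of 15 iron genes, 4 were higher (Steap1, Steap2, Steap3 and Hfe) and 6 lower, against 25.0% and 25.4% of all tested genes, with a median of -0.08. With the index, 1 was higher and 1 lower, at a median of -0.06. The transferrin receptor Tfrc was at 223, 241 and 236 CPM in CD26- NFs and 114, 99 and 112 CPM in CD26+ NFs (log2 fold change -1.10 ± 0.07, adjusted p = 4.55e-09), the iron exporter Slc40a1 at -1.62 ± 0.28 and the ferritin light chain Ftl1 at -0.85 ± 0.11 (adjusted p = 6.39e-06).

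Junction genes had the lowest median of the lists that are not cell type markers. Of 39 tested, 32 were lower and 2 higher, 20 were called lower and 0 higher, the median was -2.01 and the median r with the index was 0.65. With the index, 9 were lower and 1 higher at an adjusted p under 0.05, at a median of -0.62. Cldn1, a tight junction claudin, stood at 93.8, 104 and 99.6 CPM in CD26- NFs and 25.1, 11.6 and 15.8 CPM in CD26+ NFs (log2 fold change -2.51 ± 0.33, adjusted p = 7.63e-06), and Perp, a desmosomal protein, at 152, 141 and 159 CPM in CD26- NFs and 37.6, 19.7 and 25.6 CPM in CD26+ NFs (log2 fold change -2.45 ± 0.27, adjusted p = 1.16e-06). The 2 higher genes were Cdh11 (418 ± 37.8 CPM in CD26- NFs and 715 ± 47.6 CPM in CD26+ NFs; 0.77 ± 0.08), the cadherin of mesenchyme, and Jam3 (0.84 ± 0.16). N-cadherin (Cdh2) was lower by less than the epithelial genes (145 ± 5.64 CPM in CD26- NFs and 80.5 ± 3.55 CPM in CD26+ NFs; log2 fold change -0.85 ± 0.13, adjusted p = 3.03e-05).

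Of 25 contractile genes, 12 were lower and none higher, where 25.4% and 25.0% of all tested genes were, 3 were called lower, and the median was -0.50. With the index, 2 were lower and none higher, at a median of -0.20. Acta2, smooth muscle actin, was abundant and did not pass the test (2855, 2912 and 2851 CPM in CD26- NFs and 2476, 2468 and 2613 CPM in CD26+ NFs; log2 fold change -0.19 ± 0.34, adjusted p = 0.676). Myh11, smooth muscle myosin, stood at 40.9, 44.2 and 40.5 CPM in CD26- NFs and 8.42, 6.82 and 10.6 CPM in CD26+ NFs (log2 fold change -2.28 ± 0.49, adjusted p = 8.50e-04; r 0.25), and Itga8 at 20.9, 21.9 and 21.5 CPM in CD26- NFs and 5.1, 3.78 and 5.27 CPM in CD26+ NFs (log2 fold change -2.18 ± 0.33, adjusted p = 2.79e-05; r 0.21). The summed pericyte markers, 160 to 173 CPM against 59.0 to 77.9 CPM, moved with these genes, and their part was not tested. Most of that sum in CD26- NFs was Mcam (-1.93 ± 0.33), which followed the epithelial index (r 0.68), and of the 5 pericyte markers tested 3 were lower, while Abcc9 was higher (1.85 ± 0.35, adjusted p = 2.80e-04).

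Cell cycle genes differed little. Of 46 tested, 4 were higher and 5 lower, none was called and the median was -0.06, and these 9 genes (19.6%) past an adjusted p of 0.05 compare with 50.3% of all tested genes. Mki67 was at 177 ± 25 CPM in CD26- NFs and 171 ± 10.6 CPM in CD26+ NFs (-0.05 ± 0.29). Cyclin D1 (Ccnd1) was the member of largest difference (314, 359 and 310.0 CPM in CD26- NFs and 96.8, 66.2 and 85.6 CPM in CD26+ NFs; log2 fold change -1.98 ± 0.29, adjusted p = 1.94e-05), followed by the cell cycle inhibitor Cdkn1a (357, 342 and 319 CPM in CD26- NFs and 154, 132 and 149 CPM in CD26+ NFs; log2 fold change -1.23 ± 0.14, adjusted p = 1.90e-06). Of 16 housekeeping genes 5 were higher and 7 lower, against 25.0% and 25.4% of all tested genes, with a median of -0.09, and only Tfrc, which is also an iron gene, differed by more than 1.

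**Figure D5:**
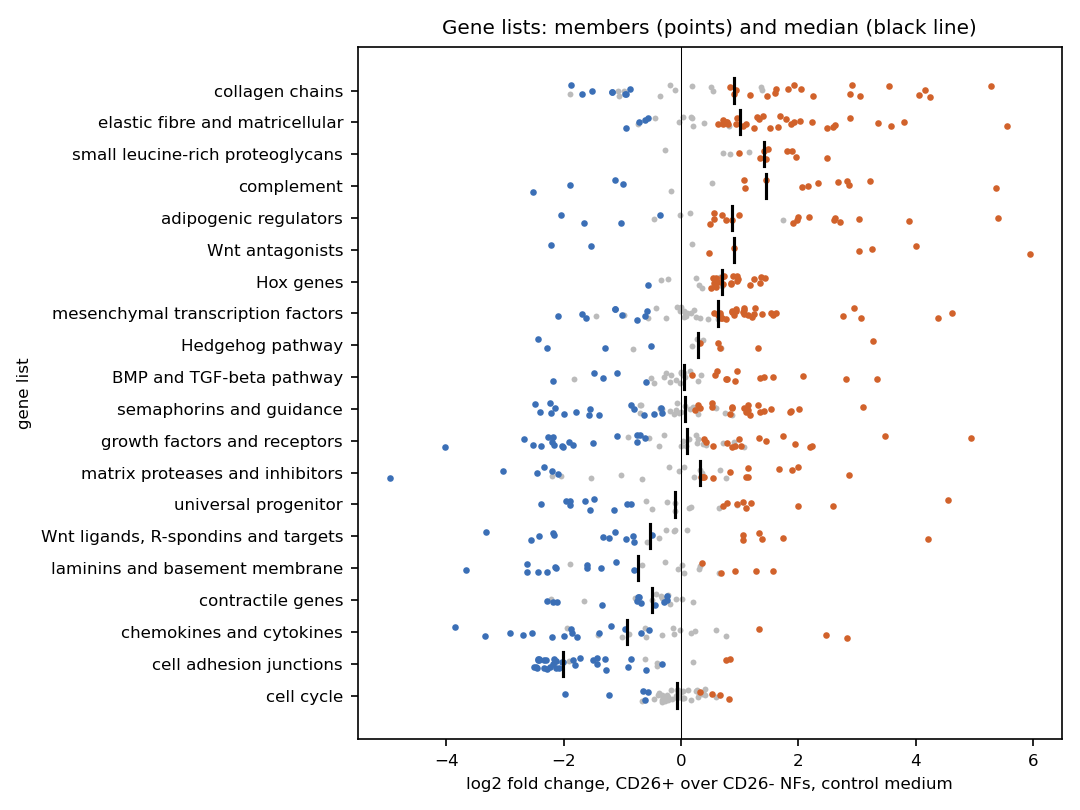
Log2 fold changes between CD26+ and CD26- NFs in control medium of the tested members of 20 gene lists, 1 point per gene, orange for genes higher and blue for genes lower at an adjusted p under 0.05, grey for the rest, and a black line at the median. Medians run from -2.01 for junction genes to 1.46 for complement, with cell cycle genes at -0.06.

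The differences between the populations were also measured in tumour CM, in 12 libraries that are not part of the control-medium contrast. All 29 genes ranked by p above had an adjusted p under 0.05 there with the same sign, as did 783 of the 852 called genes (91.9%) and 52.7% of all tested genes. The fit took the 6 tumour lines as plain replicates, and all 29 passed again when the shared line entered as a block. Sfrp2 differed by 3.76 ± 0.17 (adjusted p = 4.85e-11) on the log2 scale in tumour CM, Lbp by 4.99 ± 0.21 (adjusted p = 4.85e-11), C4b by 5.43 ± 0.30 (adjusted p = 3.66e-10), Igfbp2 by -4.00 ± 0.25 (adjusted p = 1.33e-09) and Cd93 by -2.91 ± 0.13 (adjusted p = 4.85e-11). Pi16 differed by 4.79 ± 0.31 (adjusted p = 1.62e-09) and Dpp4 by 3.23 ± 0.53 (adjusted p = 5.02e-05), where Dpp4 had been at the limit of detection in control medium. Whether the 2 media were given to cells of the same sorts is not in the labels, so the tumour CM libraries are not known to be independent isolations.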

How the data were processed

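RNA was sequenced from CD26+ and CD26- normal mammary fibroblasts of FVB/n mice (stranded mRNA libraries). The deposited table holds raw counts per gene, which the authors made with HISAT2 2.1.0 and HTSeq on GRCm38, per the labels. The annotation release and the strand setting of the counting are not given in the sources used here. Genes passing filterByExpr were fitted over all 18 libraries in 4 groups with TMM scaling and edgeR's quasi-likelihood test (edgeR 4.0.16, R 4.3.3), and p-values were adjusted over all tested genes by Benjamini-Hochberg. Called genes passed an adjusted p of 0.05 and a log2 fold change beyond 2, the limits of the study, which used DESeq2. CPM carry a prior count of 2 on the log2 scale only.

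The epithelial index entered an alternative fit as a covariate. Other alternatives were RLE and upper-quartile scaling, no filter, a mean of at least 5 CPM, DESeq2 1.42.0, the 6 libraries alone, other limits, and each library left out. Named genes were the 12 higher and 12 lower with the smallest p among called genes with groups that do not overlap and at least 5 CPM, the 8 each way also called with the covariate, and Dpp4. Added were up to 4 members of each list with the largest fold among those past the adjusted p with at least 5 CPM in the higher group. The gene lists and members were chosen with earlier results of these data known. Statistics were tested on simulated data. Libraries of the 2 populations in the same tumour CM deviated together (correlation of deviations from the group means 0.25 to 0.41 over 6 tumour lines, named in the labels), and the line was tried as a block. Marker sums were compared with an exact two-sided permutation test. Promoters came from RefSeq tables on GRCm38.p6. Some results are not reported here.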

Additional observations from a re-analysis of the deposited data

Results flagged for a closer look

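The difference between CD26+ and CD26- NFs was set against the same difference in tumour CM by the interaction contrast of the edgeR fit. A difference between the media passed an adjusted p of 0.05 for 29 of the 131 named genes and for 1075 of all tested genes (7.53%). This fit took the 6 tumour lines as plain replicates. With the line as a block, which pairs CD26- and CD26+ NFs in the same tumour CM, 58 named genes passed, these 29 among them, and 2516 of all tested genes. In all 29 the log2 fold change was larger in control medium than in tumour CM. The named genes were chosen by their control-medium values, so this direction is in part fixed by the choice and is not a result about them. Each value below is the control-medium log2 fold change minus that in tumour CM, with its standard error.

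Among genes higher in CD26+ NFs, the matrix genes Col23a1 (2.38 ± 0.34), Fbn2 (1.69 ± 0.35), Sned1 (0.80 ± 0.21) and Mmp2 (0.69 ± 0.13) had a larger difference in control medium. Col23a1 differed by 4.16 in control medium and 1.78 in tumour CM. The same held for the signalling genes Sfrp2 (2.19 ± 0.32), Gdf10 (1.92 ± 0.30), Ptgfr (1.24 ± 0.26), Gas1 (0.73 ± 0.19), Trabd2b (0.78 ± 0.14), Tgfbr3 (0.72 ± 0.16), Plxna4 (1.58 ± 0.25) and Plxnd1 (0.55 ± 0.14). Sfrp2 differed by 5.95 and 3.76 in the media. The transcription factor genes Cebpd (1.33 ± 0.27), Cebpa (0.92 ± 0.25) and Hoxd8 (0.94 ± 0.22), the metalloreductase gene Steap3 (1.10 ± 0.13), the ubiquitin ligase gene Rnf144a (0.80 ± 0.21) and the cell cycle genes Cdt1 (0.83 ± 0.20) and Cdkn2c (0.72 ± 0.21) made up the rest.

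Among genes lower in CD26+ NFs, the chemokine gene Cxcl3 (-2.98 ± 0.78), the gelatinase gene Mmp9 (-2.15 ± 0.47) and Scube3 (-2.25 ± 0.54) differed most between the media. Cxcl3 differed by -3.34 in control medium and -0.36 in tumour CM (adjusted p of the difference = 0.0284). The junction genes Cgnl1 (-1.26 ± 0.17) and F11r (-0.85 ± 0.20), the pericyte marker Cspg4 (-1.09 ± 0.29), Ptgs2 (-0.81 ± 0.21), Cdkn1a (-0.79 ± 0.17), Egflam (-0.72 ± 0.16) and Tfrc (-0.38 ± 0.09) followed. The epithelial index was 4.60 to 5.41 in CD26- NFs and 2.84 to 4.13 in CD26+ NFs in tumour CM, and its part in these differences was not tested.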

How the results depend on the processing

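The number of called genes depended on the limits more than on the scaling or the tool. Against 280 higher and 572 lower genes (852 in all), a mean of at least 5 CPM left 145 and 279 (424), the epithelial covariate 161 and 67 (228), a log2 limit of 1 gave 950 and 1472 (2422), and the adjusted p alone 3567 and 3619 (7186). Genes past an adjusted p of 0.05 fell from 7186 to 1366 with the covariate, where the index and the cell type are nearly collinear over the 6 libraries and standard errors grew. RLE scaling (278 and 574), upper-quartile scaling (286 and 562), no filter (387 and 726), DESeq2 (281 and 601) and a fit of the 6 control-medium libraries alone (251 and 518) stayed within 1.5 times. DESeq2 shared 273 of the 280 higher and 572 of the 572 lower genes. Leaving out 1 library gave 265 to 306 higher and 455 to 765 lower genes, the lower genes being fewest without CD26+ replicate 11 and most without CD26+ replicate 10, the libraries with the least and the most epithelial RNA of their group. Of 130 named genes past the adjusted p, 128 stayed past it in all 6 of these fits, the exceptions being Fabp4 (adjusted p 0.0607 to 0.117 in 5 fits) and Csrp1 (0.0529 without CD26+ replicate 11). With the covariate 75 of the 130 stayed past it, 53 of 66 counts of list members moved by over 1.5 times, and none of the 130 changed sign under any of these settings. Dpp4, at 2 or fewer counts, ran from -1.02 to 0.30 on the log2 scale when 1 library was left out, the positive value coming without CD26- replicate 2. Scaling by total counts moved the log2 difference of summed fibroblast markers from 2.01 to 1.86 and of pan-epithelial markers from -2.39 to -2.53. No paired analysis was possible for the control-medium comparison because the 2 groups share no replicate number. In tumour CM the populations share the tumour line, and with the line as a replicate block, an alternative chosen after seeing the data, 58 in place of 29 named genes differed between the media and all 29 ranked genes stayed past the test.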
